A study of Drosophila melanogaster with 2 samples.

Results

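Sima binding was examined at the microRNA (miRNA) loci of *Drosophila melanogaster*. The members are all genes annotated as a pre-miRNA, the hairpin precursor of a miRNA, on the chromosome arms in the Ensembl gene models. There were 260 such loci, beside 17423 other genes on the same arms, and none was chosen by its binding. Their hairpins were 50 to 174 bp long, with a median of 92 bp. By position, 92 loci were intergenic, which means that they overlapped no protein-coding gene. A further 100 lay in an intron of a protein-coding gene on the same strand, 38 overlapped an exon of such a gene, and 30 lay antisense to one. Loci on the same strand with at most 10000 bp between neighbours were joined into 203 clusters, of which 181 held 1 locus and 22 held more, up to 12.

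The data came from chromatin immunoprecipitation followed by sequencing of whole embryos, 0 to 24 h old and pooled from both sexes. All embryos were of 1 transgenic line that stably carries the RB isoform of sima with GFP fused to its C terminus, and chromatin was pulled down with an antibody against GFP. The labels give 2 biological replicates of this single group, so no second genotype, treatment or oxygen level was compared. Regions in embryos without the tagged protein were not analysed here. In a whole embryo, binding in few cells and weak binding in many cells cannot be told apart. What was deposited are region lists, in which every region has a signal and a summit, the base of highest enrichment. Replicate 1, replicate 2 and the pooled reads each had a relaxed list of 30000 regions, and a stricter list of 1272 regions was thresholded by the authors on the irreproducible discovery rate (IDR). A locus was counted as having a region when a summit lay within 1000 bp of its hairpin. The sources used here give neither the scale of the signal nor how many reads were sequenced. The depth is therefore unknown, and each signal is given as its ratio to the median signal of its own list.

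Sima is the fly ortholog of HIF-1alpha, the subunit of the hypoxia-inducible factor that is degraded in the presence of oxygen and that pairs with Tango to bind DNA. A miRNA is transcribed as part of a longer primary transcript, from which Drosha cuts the hairpin and Dicer-1 the mature RNA. A mirtron differs in that splicing, not Drosha, releases the hairpin from a short intron. The start of the primary transcript can lie far from the hairpin, and an intronic miRNA can share the start of its host gene. The mature miRNA guides an Argonaute protein to messenger RNAs, chiefly through its seed, the short stretch near its 5′ end. miRNAs with the same seed form a family, since they can pair with the same sites.

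The mature sequences below belong to 6 of the 8 loci that had a summit of the IDR list within 1000 bp. They are shown because they identify what each of these hairpins makes and which of them share a seed with other fly miRNAs. They were read from the RefSeq annotation of Release 6, 5′ to 3′, and capitals mark the seed, bases 2 to 8. The arm (5p or 3p) was assigned from the position in the hairpin.
mir-282 5p: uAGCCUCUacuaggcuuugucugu
mir-282 3p: aCAUAGCCuauaagagguuagg
mir-92a 5p: aGGACGGGaaggugucaacguu
mir-92a 3p: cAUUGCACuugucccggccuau
mir-2496 5p: gUGCGUGUgugagaggccaucgua
mir-2496 3p: gCGGGGCAcucacacacgcaua
mir-9378 5p: aGUGGAGUgagaccucgaguucgg
mir-9378 3p: gAACGGGAguuuccuccauugg
mir-4974 5p: aGAGAGUAuauugauuuuaggu
mir-4974 3p: uAUAAAAUauauauauuccuga
mir-966 5p: uGUGGGUUgugggcugugugg
mir-966 3p: cCGCCAGUugauaacccccagc
Of these 12 products, the 3p product of mir-92a shared its seed with other loci. Those were mir-92b and mir-310 to mir-313, 5 loci in all, of which 5 had a region of the relaxed pooled list and 0 had one of the IDR list. Over all loci, 50.4% had a pooled region and 3.08% an IDR summit. The strongest pooled region of mir-310 to mir-313 was 1 shared region, at 1.14 times the median. The other 11 seeds occurred at no other locus among 481 annotated products with 426 different seeds.

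The DNA at the summits is shown for the 3 of the 8 loci whose summit window held the word TTAAAA, printed on the plus strand with that word in capitals. Each window covers 101 bp, the summit and 50 bp on each side. The window of mir-282 was chr3L:3250221-3250321, that of mir-92a chr3R:25646957-25647057 and that of mir-966 chr2L:6046057-6046157, all on build dm6.
mir-282 summit: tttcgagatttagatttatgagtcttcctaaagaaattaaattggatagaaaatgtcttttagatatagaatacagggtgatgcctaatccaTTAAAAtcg
mir-92a summit: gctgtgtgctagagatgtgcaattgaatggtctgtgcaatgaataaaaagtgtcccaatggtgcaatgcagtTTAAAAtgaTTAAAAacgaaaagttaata
mir-966 summit: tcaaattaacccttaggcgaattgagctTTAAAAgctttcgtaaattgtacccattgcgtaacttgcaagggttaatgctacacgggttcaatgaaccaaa
TTAAAA, read on either strand, was present at 3 of 8 summits near a miRNA and at 398 of all 1272 IDR summits (31.3%). It was not among the words planned beforehand, and the windows shown were picked for holding it. The hypoxia response core, ACGTG or GCGTG on either strand, was in 0 of the 8 windows and in 169 of the 1272 (13.3%). CACGTG, a word that contains ACGTG, was in 0 of the 8 and in 14 of the 1272 (1.10%). The G+C content of the 8 windows ranged from 28.7% to 47.5% with a median of 36.6%, beside a median of 33.7% over all IDR windows. Among the strongest pooled regions at miRNA loci, 108 in all, the hypoxia core was in 23 (21.3%), beside 19.4% of all pooled regions. The absence of a word says only that these letters were not in the window.

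In all, 8 of 260 loci had an IDR summit within 1000 bp (3.08%, Wilson 95% interval 1.57% to 5.95%), and 8 separate regions accounted for them. They were mir-4981, mir-282, mir-92a, mir-2496, mir-9378, mir-4974, mir-966 and mir-308. In order of position, 3 were intergenic (mir-4981, mir-282 and mir-2496) and 5 were intronic. The background was 1.90% of 133884 windows of hairpin length spaced 1000 bp apart along the arms, 6.60% of 591 genes for tRNA, snoRNA and snRNA, which are also short, and 9.37% of the 17423 other genes, which are mostly longer. The share at miRNA loci thus lay between the windows and the other short RNA genes, and its interval included 1.90% and did not reach 6.60%. Among the short RNA genes, 10 of 290 tRNA genes (3.45%) and 28 of 269 snoRNA genes (10.4%) had an IDR summit. All intervals cover counting error over loci, clusters or genes only, and the loci are not replicates.

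mir-4981 had the strongest IDR region of the 8 loci. It is an intergenic hairpin (2R, 8015249 to 8015343, plus strand). Its region ranked 70 of the pooled list, and its signal was 5.78 times the median in replicate 1 and 12.2 times the median in replicate 2, with a mean of 9.01 ± 4.55 (SD, n = 2). The summit lay 852 bp 5′ of the hairpin and 642 bp upstream of the nearest coding start, that of CG14762. Within 500 bp of the hairpin the strongest pooled region reached 0.860 times the median.

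mir-282, an intergenic miRNA conserved among insects (3L, 3251022 to 3251118, plus strand), had a region of pooled rank 207. The ratio was 5.20 in replicate 1 and 5.42 in replicate 2, with a mean of 5.31 ± 0.158 (SD, n = 2), so the replicates lay close together. The summit was 751 bp 5′ of the hairpin, inside lncRNA:CR43626, the annotated noncoding RNA that holds mir-282, and 323 bp upstream of one of its start sites. The nearest coding start, of CG43389, was 2256 bp away.

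mir-2496 (X, 2010300 to 2010417, plus strand) was the third intergenic locus, with a region of pooled rank 792. The ratio was 2.78 in replicate 1 and 3.57 in replicate 2 (mean 3.18 ± 0.562, SD, n = 2). The summit lay 530 bp 5′ of the hairpin, 406 bp upstream of a start of PIG-K, which encodes a subunit of the GPI transamidase, and 187 bp upstream of lncRNA:CR45478.

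mir-92a lies in an intron of jigr1, a gene known as a target of its own miRNA in neural stem cells (3R, 25646506 to 25646600, plus strand). The region had pooled rank 480 and a ratio of 2.88 in replicate 1 and 5.69 in replicate 2 (mean 4.29 ± 1.98, SD, n = 2). It was the one region of the 8 on the 3′ side, 407 bp past the hairpin and 239 bp upstream of an internal start site of jigr1. mir-92b, its neighbour in the same gene, had no IDR summit, and its strongest pooled region ranked 15131.

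The other 4 intronic loci had weaker regions. mir-9378, in CG17124 (2L, 10751877 to 10751938, minus strand), had ratios of 2.31 and 2.66 in replicates 1 and 2, with a summit 190 bp 5′ of the hairpin and 4197 bp inside the host. mir-4974, in CG8671 (2L, 21263933 to 21264034, plus strand), had ratios of 2.79 and 2.08, with a summit 108 bp 5′ of the hairpin and 869 bp past the host's start. These were the nearest summits, and both regions touched the hairpin itself. mir-966, in Pfas, which encodes an enzyme of purine synthesis (2L, 6045627 to 6045713, minus strand), had ratios of 2.34 and 2.37, with the summit 57 bp upstream of a Pfas start.

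mir-308 (2R, 14215802 to 14215864, minus strand) lies in a 248 bp intron of RpS23, a gene for a protein of the small ribosomal subunit. Its summit was 722 bp 5′ of the hairpin and 8 bp upstream of a start of RpS23, at pooled rank 1237 of 1272. The ratio was 1.48 in replicate 1, where the region ranked 4987, and 3.77 in replicate 2, where it ranked 697, so this locus rested mainly on replicate 2. The 3p product of mir-308 carries the seed of the large mir-2 family, which represses cell death genes of the fly. That seed was shared with 13 other loci, of which 11 had a pooled region and 0 an IDR region. Over all loci, 50.4% had a pooled region and 3.08% an IDR summit. Neighbours among the 13 shared regions: mir-6-1, mir-6-2, mir-6-3 and mir-5 had 1 in common, and so did mir-13a, mir-13b-1 and mir-2c.

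**Figure D1:**
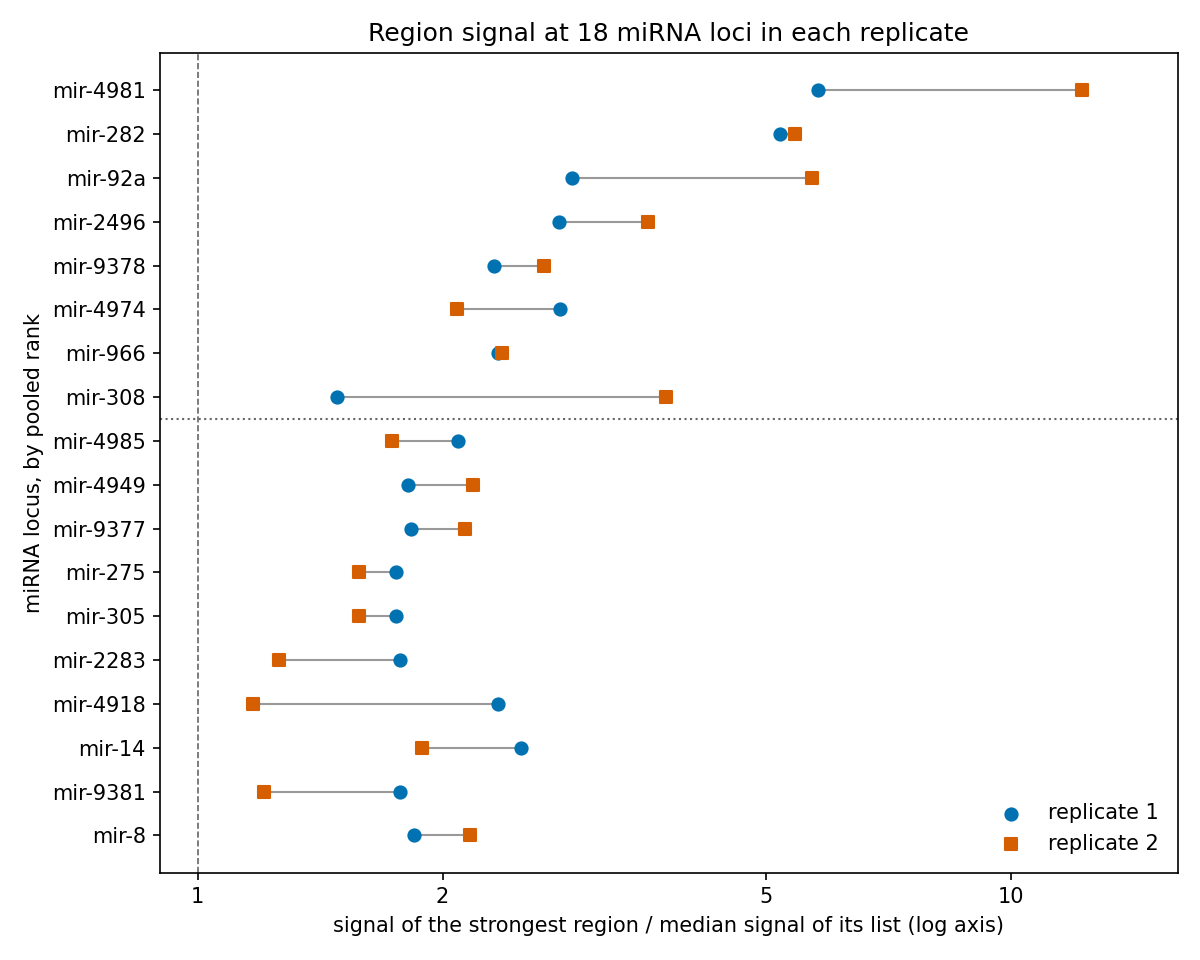
Signal of the strongest region within 1000 bp of each of 18 loci, as a ratio to the median of its list on a log axis, in replicate 1 (circles) and replicate 2 (squares). The 8 loci above the dotted line had an IDR summit, the 10 below were next by pooled rank, and the dashed line marks the median. Among the 8, mir-308 and mir-4981 differ most between the replicates, and mir-282 and mir-966 least.

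The 2 replicates agreed on 4 of the 8 loci when each was cut at its own 1272 strongest regions, a number equal to the IDR list. These were mir-4981, mir-282, mir-92a and mir-2496. Replicate 1 placed 5 of the 8 among its strongest regions, and replicate 2 also placed 5. mir-14 was among the strongest of replicate 1 (rank 1092), at a summit 988 bp 5′ of the hairpin, and was not among those of replicate 2.

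**Figure D2:**
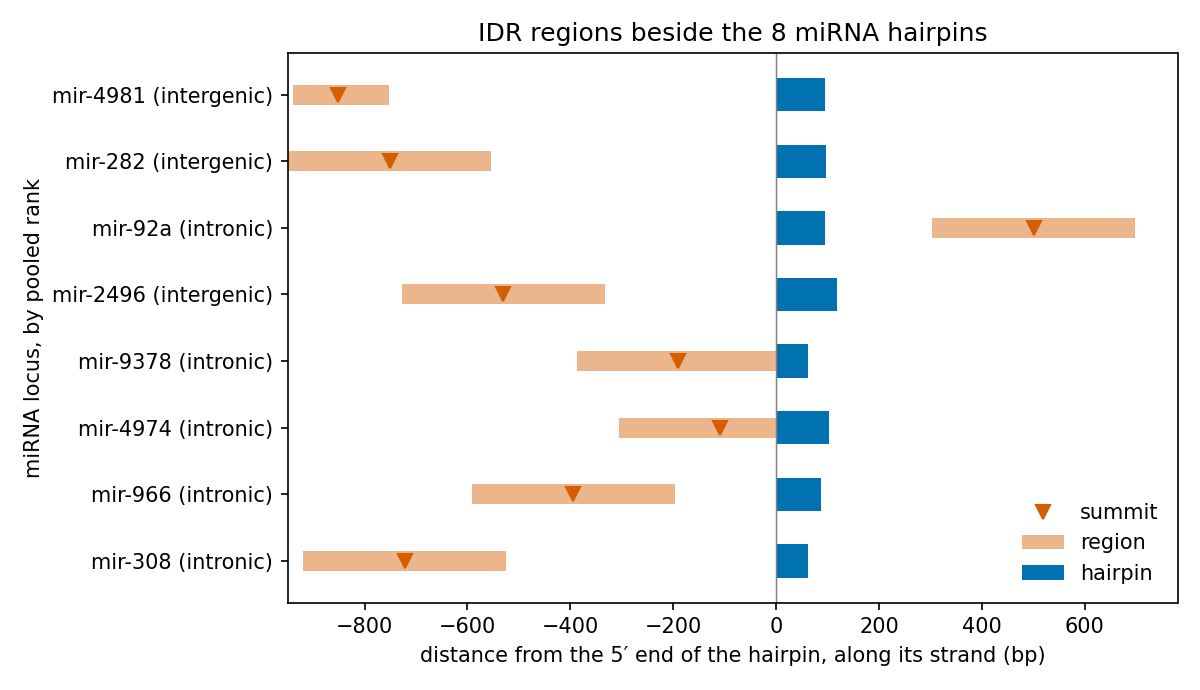
Position of the IDR region (pale bar) and its summit (triangle) relative to the hairpin (dark bar) at the 8 loci, in bp along the strand of the hairpin from its 5′ end. At 7 loci the summit lies on the 5′ side, from 108 to 852 bp away, and at mir-92a on the 3′ side.

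The summit lay on the 5′ side of the hairpin at 7 of the 8 loci, on the 3′ side at 1 and inside it at 0. In the pooled list the strongest summit was on the 5′ side at 77 of 131 loci, inside the hairpin at 2 and on the 3′ side at 52. The 5′ count was 31 of 51 for intergenic loci and 30 of 51 for intronic ones. Coding starts were often near: 66 loci had a coding start within 1000 bp of the hairpin and 5 of them had an IDR summit, beside 3 of the 194 loci with no coding start so near. Those 3 were mir-4981, mir-282 and mir-9378.

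**Figure D3:**
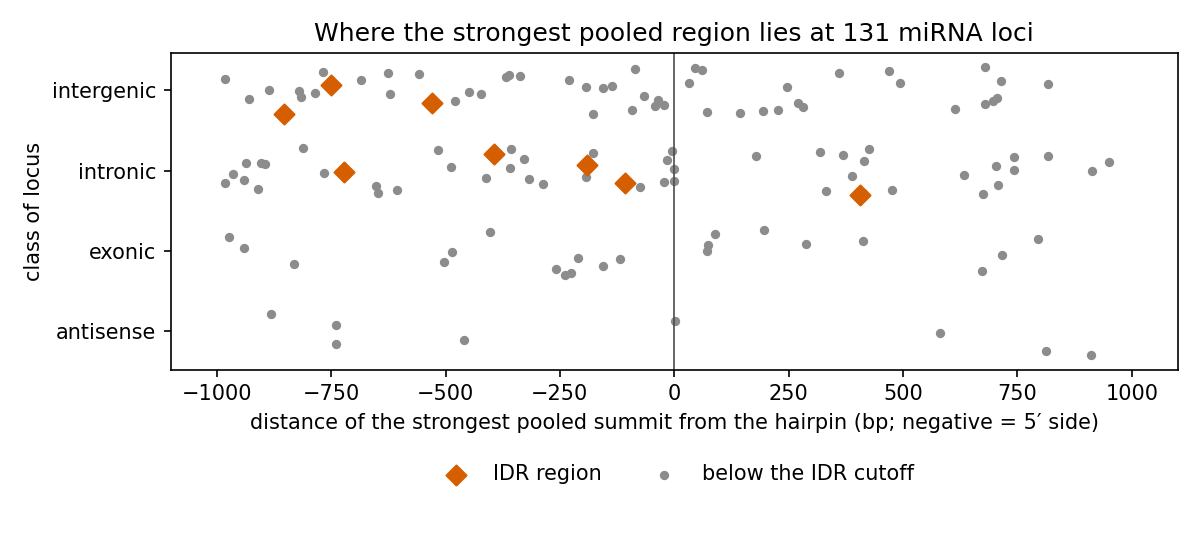
Distance in bp from the hairpin to the summit of the strongest pooled region at 131 loci, by class, with the 5′ side to the left. Diamonds are the 8 IDR regions and grey points are weaker regions. Points lie on both sides of the hairpin in every class, and no exonic or antisense locus has a diamond.

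Intergenic and intronic loci were compared once per cluster, because neighbours can share a region. An IDR summit lay near 3 of 56 intergenic clusters (5.36%, Wilson 95% interval 1.84% to 14.6%) and near 4 of 88 intronic clusters (4.55%, 1.78% to 11.1%). The difference was 0.81 percentage points, with a Newcombe 95% interval of −6.64 to 10.5, so neither sign of a difference was resolved with this many clusters. The intronic clusters were those of mir-9378, mir-4974, mir-966 and mir-308. The cluster of mir-92a and mir-92b held an intronic and an exonic locus and was counted apart. Of 37 exonic and 19 antisense clusters, 0 had an IDR summit, with upper 95% limits of 9.41% and 16.8%.

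In the relaxed lists more clusters of both classes had a region. A pooled region lay near 31 of 56 intergenic clusters (55.4%) and 47 of 88 intronic clusters (53.4%), a difference of 1.95 points (−14.4 to 18.0). In replicate 1 the counts were 30 and 46, a difference of 1.30 points (−15.1 to 17.4). In replicate 2 they were 34 and 39, a difference of 16.4 points (−0.32 to 31.7), whose interval also included 0. Among clusters with a pooled region, the median ratio was 1.14 for intergenic ones (0.753 to 10.2) and 1.04 for intronic ones (0.738 to 3.15), so most regions of both classes were close to the middle of the list.

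**Figure D4:**
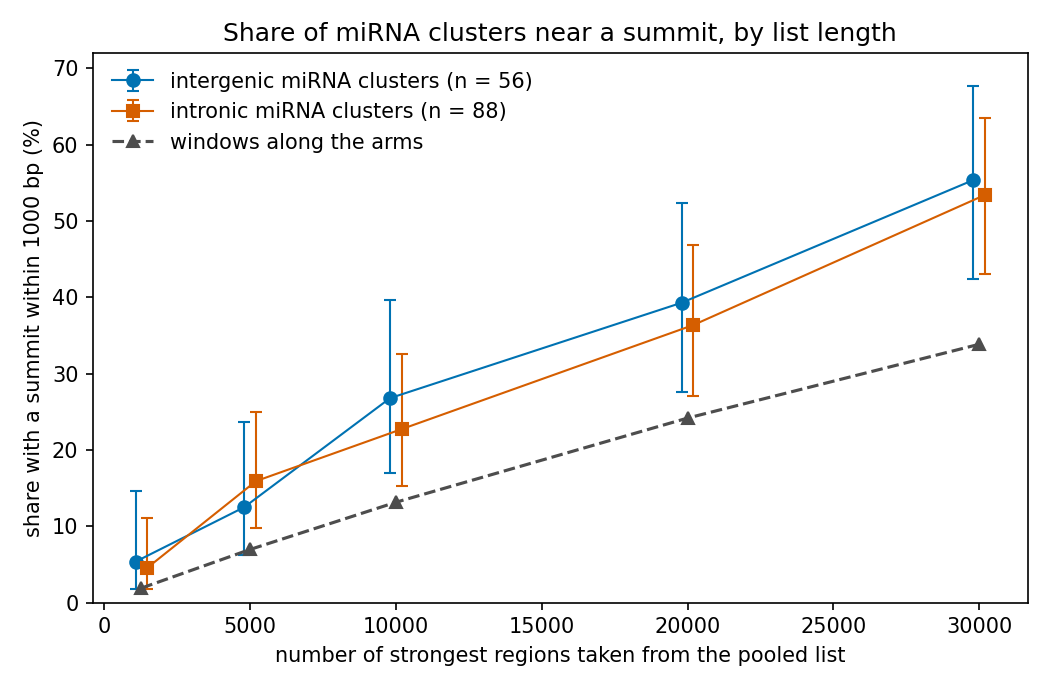
Share of 56 intergenic (circles) and 88 intronic (squares) miRNA clusters with a summit within 1000 bp, against the number of strongest regions taken from the pooled list, with Wilson 95% intervals. The dashed line with triangles is the share of windows along the arms. The intervals of the 2 classes overlap at every list length. Both shares lie above that of the windows, but at 1272 regions (5.36% and 4.55% against 1.90%) the intervals of both classes include it, as does that of the intergenic clusters at 5000. A cluster can span several hairpins, whereas a window has the length of 1.

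Below the IDR threshold, about as many loci had a region as had none. A pooled summit lay within 1000 bp of 131 of 260 loci (50.4%, 44.3% to 56.4%), in 107 of 203 clusters. The background was 33.8% of the windows and 65.0% of the tRNA, snoRNA and snRNA genes, so the share at miRNA loci again lay between them. Replicate 1 had a region at 128 loci, beside 33.1% of the windows, and replicate 2 at 127 loci, beside 36.2%. At 84 loci the pooled list and both replicate lists each had a region, and 88 loci had no region in any of these lists. The 84 were not required to have the same site in each list. At mir-2497 the only region of replicate 1 lay on the other side of the hairpin from the pooled one. The share of windows by this joint count was not taken. The median pooled ratio over the 131 loci was 1.14. Nearness to coding starts moved with these counts: a pooled region was found at 17 of 20 intergenic loci with a coding start within 1000 bp and at 34 of 72 without one, and at 20 of 28 and 31 of 72 intronic loci. The part of coding starts in the result was not tested.

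By arm, a pooled region was found at 14 of 58 loci on X (24.1%, 15.0% to 36.5%), 24 of 56 on 2L, 35 of 55 on 2R, 17 of 31 on 3L, 40 of 58 on 3R and 1 of 2 on 4. Among windows, 30.9% on X and 32.7% to 36.5% on the arms of chromosomes 2 and 3 had a pooled summit. Large clusters weigh on these counts: the 12 loci of the mir-972 to mir-979 cluster on X and the 6 loci of the mir-959 to mir-964 cluster on 2L had no region in any list. Both clusters are known for expression in the testis. Counted by cluster, a pooled region was found at 14 of 39 on X (35.9%, 22.7% to 51.6%), 22 of 41 on 2L, 21 of 41 on 2R, 17 of 31 on 3L and 32 of 49 on 3R. The share on X was thus below that of its windows by locus and above it by cluster, and the difference between arms was not tested.

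The start sites of the transcripts that carry miRNAs were examined next, because a start can lie far from the hairpin. Of the 92 intergenic loci, 41 lay inside 29 annotated noncoding RNA genes, which were taken as their primary transcripts. For 2 of these 29 genes, an IDR summit was at most 500 bp from a start site (6.90%, 1.91% to 22.0%), beside 2.42% of 2520 noncoding RNA genes. One was lncRNA:CR43626 of mir-282, described above.

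The other was lncRNA:CR31044 (3R, 29214562 to 29219667), the primary transcript of mir-279 and mir-996, and it had the highest-ranked region at any start site of these 29 genes. mir-279 is known for blocking the formation of extra carbon dioxide-sensing neurons. Its mature product and that of mir-996 are shown with that of bantam, because mir-279 and bantam had IDR summits beyond the 1000 bp limit, and because mir-279 and mir-996 lie in 1 transcript and share a seed, which is also that of mir-286. Capitals mark the seed, and the last line is the summit window at the start of lncRNA:CR31044, chr3R:29214411-29214511 of dm6, plus strand.
mir-279 3p: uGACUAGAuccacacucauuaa
mir-996 3p: uGACUAGAuuucaugcucgucu
mir-ban 3p: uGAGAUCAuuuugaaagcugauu
lncRNA:CR31044 summit: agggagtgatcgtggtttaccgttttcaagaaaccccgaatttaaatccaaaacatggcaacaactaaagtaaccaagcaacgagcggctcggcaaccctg
Neither the hypoxia core nor TTAAAA was in this window. The region ranked 17 of the 30000 pooled regions. Its ratio was 14.0 in replicate 1 (rank 24) and 14.1 in replicate 2 (rank 39), with a mean of 14.0 ± 0.0448 (SD, n = 2). The summit was 101 bp upstream of the start of lncRNA:CR31044, 1124 bp 5′ of the mir-279 hairpin and 5711 bp from the nearest coding start. It was above the ratio of every one of the 8 loci within 1000 bp, in both replicates.

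Counting summits up to 2000 bp from the hairpin added 4 loci to the 8. These were mir-279, bantam, mir-9377 and mir-2493. bantam (mir-ban), which promotes growth and blocks cell death, had an IDR summit 1413 bp 5′ of its hairpin, with a ratio of 2.45 in replicate 1 and 5.72 in replicate 2 (mean 4.09 ± 2.31, SD, n = 2), at pooled rank 428. Within 1000 bp its strongest pooled region ranked 18217, below the median of the list. mir-9377, in the gene of the RNA-binding protein Tis11, had a summit 1349 bp 3′ of the hairpin at rank 559, and mir-2493 had a summit 1007 bp away at rank 762, 60 bp past the start of its host CG42788. The distance limit thus decided whether these 4 loci were counted.

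Below the IDR threshold, starts of other noncoding RNA genes taken as primary transcripts had weaker regions. Hsromega, the heat-shock noncoding RNA that holds mir-4951, had a summit 190 bp past a start at pooled rank 1306, with ratios of 2.62 and 2.25 in replicates 1 and 2. lncRNA:CR43651 of mir-14 had a region at rank 1939, 92 bp upstream of a start, which was found in replicate 1 and not in the list of replicate 2. lncRNA:CR43650 of mir-8, a miRNA of growth and insulin signalling in the fat body, had a region at rank 3955 (ratios 1.49 and 2.25). In all, 18 of the 29 genes had a pooled region within 500 bp of a start, beside 29.0% of 2520 noncoding RNA genes, with no matching for the number of start sites. The other 11 had none, among them lncRNA:let7C, which carries let-7, and the transcript of mir-124.

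The 100 intronic loci lay in 93 host genes. For 14 hosts, an IDR summit was at most 500 bp from a start site (15.1%, 9.18% to 23.7%), beside 6.22% of 13945 protein-coding genes. Hosts also had more annotated start sites, with a median of 2 and of 3 in the bound hosts, beside 1 over all coding genes, and the part of this in the count was not tested. These 14 hosts held 15 of the 100 intronic loci, and 3 of those 15 also had an IDR summit within 1000 bp of the hairpin: mir-92a, mir-966 and mir-308. All annotated starts of a host were counted, also those past the hairpin. At for, jigr1 and tacc the bound start lay 3′ of the hairpin, so a transcript from that start does not contain the miRNA.

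The strongest region at a host start was at PAPLA1, which encodes a phospholipase and holds mir-4984. It had ratios of 4.80 and 7.40 in replicates 1 and 2 (mean 6.10 ± 1.84, SD, n = 2) at pooled rank 137, 60 bp upstream of a start and 18036 bp from the hairpin. spi, which encodes the EGF receptor ligand Spitz and holds mir-2a-1, mir-2a-2 and mir-2b-2, had ratios of 3.55 and 9.09 at rank 146, 5504 bp from the nearest of the 3 hairpins. for, the cGMP-dependent protein kinase gene that holds mir-4972, had ratios of 4.56 and 6.26 at rank 203, at a start 3′ of the hairpin. At all 3 of these hosts the ratio was higher in replicate 2.

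The other bound hosts were weaker, with pooled ranks of 480 to 1260. They were jigr1 (mir-92a), CG45092 and chk, which share 1 region and both hold mir-4975, bun (mir-967), MRP (mir-9382), Mob2 (mir-4968), CG42788 (mir-2493), kis (mir-965), Pfas (mir-966), RpS23 (mir-308) and tacc (mir-9384). bun encodes a growth regulator of the TSC22 family, kis a chromatin remodeller and Mob2 a kinase activator. For tacc, the value taken was 1.21 in replicate 1, the lowest of the bound hosts there, and 2.98 in replicate 2. The 1.21 belongs to another site, with its summit at 4749203. It does not describe the IDR region at tacc (3R, 4739888 to 4740283).

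**Figure D5:**
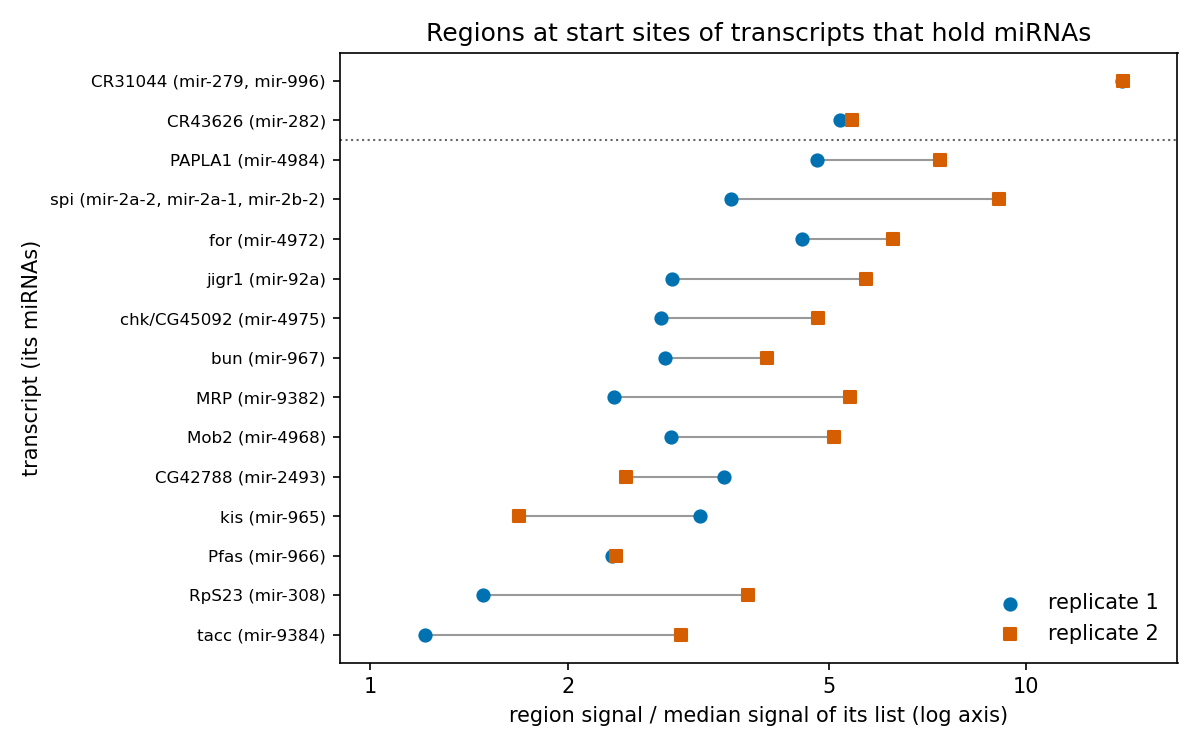
Ratio of region signal to the median of its list (log axis) in replicate 1 (circles) and replicate 2 (squares), for the IDR regions within 500 bp of a start site of a noncoding primary transcript (above the dotted line) or of a protein-coding host gene (below it), with the miRNAs each one holds. The start of lncRNA:CR31044 stands highest at 14.0 and 14.1. tacc has the lowest value in replicate 1, 1.21, and 2.98 in replicate 2, but the 1.21 is of another site than its IDR region. At for, jigr1 and tacc the start lies 3′ of the hairpin.

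Some intronic hairpins are mirtrons that fill a whole intron. With both hairpin ends at most 5 bp from the ends of the intron, 31 of the 100 intronic loci had this form, and 0 of them had an IDR summit while 14 had a pooled region. Of the other 69 intronic loci, 5 had an IDR summit and 37 a pooled region. mir-4918, whose hairpin fills a 55 bp intron of tex, a gene of the THO complex, had a pooled region of rank 3251, with ratios of 2.34 and 1.17 in replicates 1 and 2. The summit behind the replicate 2 value lay outside the pooled region.

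Of the 10 loci next by pooled rank, none entered the IDR list, and their pooled ranks ran from 1667 to 3955. The first was mir-4985 in Fatp3, a fatty acid transport gene, with ratios of 2.09 and 1.73 in replicates 1 and 2 and a summit 471 bp upstream of a Fatp3 start. It was followed by mir-4949, which overlaps an exon of ATPsynC, a subunit of the mitochondrial ATP synthase (1.81 and 2.18), and by mir-9377 (1.83 and 2.13). mir-275 and mir-305, neighbours linked to gut and insulin functions, shared 1 region of rank 2450, with ratios of 1.75 and 1.58. At mir-4949, mir-9377, mir-14 and mir-8 the strongest region in replicate 1 lay over 800 bp from the pooled summit, so the 2 replicate values there describe different sites.

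The loci were also grouped by known function. Each count can be read against all loci, of which 50.4% had a pooled region and 3.08% an IDR summit, and no list was tested against the rest. For counts by cluster, the share with a pooled region over all 203 clusters was 52.7%. Of 16 loci with roles in growth and cell death, 1 had an IDR summit (mir-308) and 13 had a pooled region. By cluster these were 9 of 11. They were led after mir-308 by mir-14, mir-8 and mir-2a-1, with mir-13b-2 and mir-278 among those without one. Of 9 loci tied to metabolism and insulin, 0 had an IDR summit and 7 a pooled region, in 6 of 8 clusters, led by mir-275, mir-305, mir-14 and mir-8, while mir-278 and mir-33, which sits in the SREBP gene, had none. The 2 counts overlap, since mir-14, mir-8 and mir-278 belong to both lists. The list named for the mir-310 family held 8 loci, of which mir-991 and mir-992 do not share the 3p seed of mir-92a. These 8 held 1 IDR summit (mir-92a), and all 8 had a pooled region, but they form only 2 clusters and share 4 strongest regions. Apart from that of mir-92a, these regions had ranks from 10702 on.

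The remaining lists had no IDR summit within 1000 bp. Of 11 nervous system loci, 6 had a pooled region (54.5%, close to the 50.4% of all loci), the highest at mir-276a, and mir-124 and mir-190 had none. Of 7 loci of ecdysone response and developmental timing, 4 had one (57.1%; mir-14, mir-34, mir-965 and mir-252), and mir-100 and mir-125 had none. Of 4 muscle loci, mir-92b had one, and mir-1 and mir-133 had none.

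The Hox loci mir-iab-4, mir-iab-8, mir-10 and mir-993 all had a pooled region, the first pair at the same place on opposite strands and sharing 1 region of rank 5210. The 8 loci of the mir-309 cluster, which clears maternal messenger RNA in the early embryo, shared 1 region of rank 6001 and thus count as 1 cluster. mir-190 and mir-210 were the 2 loci listed for a link to hypoxia in the literature, mir-210 as a HIF target of mammals and mir-190 as a regulator of the fly hypoxia response. Neither had a region within 1000 bp of its hairpin in the IDR list, the pooled list or either replicate list.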

How the data were processed

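The data were chromatin immunoprecipitation lists on build dm6 from 2 biological replicates of 1 group. The text files deposited with the lists state that 1 control file was used for each relaxed list of 30000 regions. The signal deposited by the authors for each region was divided by the median signal of its list. A −log10 q value deposited by the authors was used for no comparison, and the p column held no p-values. For the peak caller, its settings and the IDR threshold, names and values are not given in the sources used. The IDR list was checked to be the 1272 strongest regions of the pooled list. The number of reads is likewise not given in the sources used here, and the depth of each sample is unknown.

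Loci were the genes whose transcript is annotated as pre_miRNA in Ensembl release 115 (BDGP6.54), and mature sequences came from the RefSeq annotation of Release 6. Ranks are by signal. Shares have Wilson and differences Newcombe 95% intervals, which cover counting error over loci, clusters or genes only. With 1 group there was no test and no p-value. Steps were checked on simulated data, with pandas 2.3.3, numpy 2.4.6 and scipy 1.17.1 under Python 3.11.15, and figures were drawn with matplotlib 3.10.9.

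Loci were named by rule: each with an IDR summit within 1000 bp, the next 10 by pooled rank, and for each list the up to 4 with the highest-ranked region and the first 2 by alphabet without one. Transcripts, host genes, the loci beyond 1000 bp, the large clusters without regions and the whole-intron loci were named or counted after values were seen. The word TTAAAA was not among those planned. The members and lists were chosen with earlier results of these data known. Alternatives changed the distance, the threshold, the replicate, the cluster gap and the classes. Lists on build dm3 were not used.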

Additional observations from a re-analysis of the deposited data

How the results depend on the processing

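The count of loci with an IDR summit, and equally the count of clusters, was 8. It moved to 4 with a distance of 500 bp and to 3 with the stronger 636 regions of the IDR list. With the same number of strongest regions from a single replicate it ranged from 5 to 6, and 5 of the 6 in replicate 1 were among the 8. It was 12 with a distance of 2000 bp, 9 when any base of the region counted, and 8 clusters under every other cluster gap tried (1000 bp, 20000 bp and each locus by itself). The difference between intergenic and intronic clusters, 0.81 points, ranged from −3.41 points with 500 bp to 6.01 points without replicate 2, and its interval included 0 under every alternative run. The count of loci with a pooled region, 131, was 91 with 500 bp and 162 with 2000 bp. From single replicates it ranged from 127 to 128, of which 97 in replicate 2 and 110 in replicate 1 were among the 131. Of the 18 ratios at loci named by the first 2 parts of the rule, 10 moved by more than 1 SD without replicate 1 and 10 without replicate 2 (14 different loci), 5 of the 16 that could be had moved with 500 bp, and 3 moved with 2000 bp. No paired analysis was possible because there is 1 group and no test. Depth is unknown, so no limit from depth can be given for loci without a region, and with 2 replicates an SD is itself imprecise.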

Other observations

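The summit window of mir-92a held 3 copies, on the plus strand, of the letters complementary to the seed of the 3p product of mir-92a. Of all 1272 IDR windows of 101 bp, 8 held at least 1 copy on that strand (0.629%), and 1 held 3 or more. The same search with the complement of the other 11 seeds printed in the report found 0 copies in the window of their own locus. The search was made after the mir-92a window had been read, and it is given as a count only.

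Exonic and antisense loci had no IDR summit. After mir-4949 (rank 2203) and mir-iab-4 (rank 5210), the highest-ranked locus of each class, the next were as follows. Among exonic loci, mir-9370 in Amun ranked 4684 (ratios 1.89 in replicate 1 and 0.766 in replicate 2) and mir-9374 in Hr39, a nuclear receptor gene, ranked 5569 (1.20 and 1.95). Among antisense loci, mir-4957 opposite Top1, the topoisomerase I gene, ranked 6552 (1.52 and 1.03), and mir-1000 opposite msi, an RNA-binding protein gene, ranked 6590 (0.998 and 0.871). At mir-4957 the replicate 1 summit lay on the other side of the hairpin from the pooled one, so the 1.52 describes another site. The replicate 2 summit there was at 15320523 and the pooled one at 15320777.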
